A study of Mus musculus with 12 samples.

Results

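The 27 genes described here are the cholesterol synthesis genes and targets of SREBP2 in mouse liver, taken from a named list and matched by exact symbol, out of 55421 genes in the count table. All 27 were present, and all 27 passed the filter on low counts that left 14076 genes for testing. They comprised 4 regulators and sensors (Srebf2, Scap, Insig1 and Insig2), 8 genes of the mevalonate steps, 11 genes of the squalene and sterol steps, and 4 genes of sterol transport and receptor turnover. Livers came from adult male C57BL/6 mice of the strains Fra1hep and Fra2hep, in which removal of doxycycline switches on a transgene. Each strain contributed 3 mutants and 3 controls. The controls were littermates from the same cages, and in all 4 groups doxycycline was withdrawn at 3 weeks of age, so the withdrawal itself was shared by mutants and controls. The sample titles and the design text give 2 months of induction for every mouse. For the 3 Fra2 mutants, however, the treatment field reads 9 months, against 2 months for their controls. If that label is right, duration of induction and age cannot be told apart from genotype in the Fra2 comparison. The promoter that drives the transgenes is not stated in the labels, and the cell type label calls the tissue mostly hepatocyte. In whole liver, fewer cells of a type and less RNA per cell cannot be told apart.

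Fra-1 and Fra-2, encoded by Fosl1 and Fosl2, are Fos-family members of the transcription factor AP-1. SREBP2, encoded by Srebf2, is made as a membrane protein of the endoplasmic reticulum, where SCAP carries it to the Golgi for cleavage when sterols are scarce. INSIG proteins hold SCAP back when sterols are plentiful. The released fragment of SREBP2 binds sterol regulatory elements, often beside the CCAAT boxes bound by NF-Y, and raises transcription of most enzymes between acetyl-CoA and cholesterol. The liver is a main site of cholesterol synthesis in the body, and it also sheds cholesterol into bile and lipoproteins.

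The promoters are shown first for the member with the literal sterol regulatory element and for the member with the largest change in Fra1 mutants. Both stretches are the 250 bases before an annotated start, from RefSeq on GRCm38.p6. Capitals mark matches on either strand to the sterol element core TCACNCCAC, the NF-Y box CCAAT, the E-box CACGTG or the AP-1 site TGANTCA. Hmgcs1 lies on the plus strand, at chr13:119690101-119690350, and Insig2 on the minus strand, at chr1:121332590-121332839. Neither stretch overlaps an annotated exon of its gene.
Hmgcs1: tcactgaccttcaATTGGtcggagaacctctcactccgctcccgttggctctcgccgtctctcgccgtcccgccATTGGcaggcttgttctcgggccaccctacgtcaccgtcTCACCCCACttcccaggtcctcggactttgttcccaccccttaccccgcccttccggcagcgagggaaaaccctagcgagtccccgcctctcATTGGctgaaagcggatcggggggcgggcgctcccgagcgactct
Insig2: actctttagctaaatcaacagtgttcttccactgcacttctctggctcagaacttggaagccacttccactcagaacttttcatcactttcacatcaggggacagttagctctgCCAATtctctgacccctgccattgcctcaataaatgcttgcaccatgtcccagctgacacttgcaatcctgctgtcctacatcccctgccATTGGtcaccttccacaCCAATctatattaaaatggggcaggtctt
The Hmgcs1 stretch holds 1 sterol element core, 137 bases before the start, and 3 NF-Y boxes. The Insig2 stretch, which precedes the most upstream of its starts, holds 3 NF-Y boxes and no match to the other 3 motifs.

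RefSeq promoter windows, running from 250 bases before to 50 bases after a start, were found for 22 of the 27 members, with 28 windows in all. Fdft1, Fdps, Npc1, Sqle and Stard4 had no entry. An NF-Y box stood in 71.4% of the members' windows, against 37.4% of all 32851 windows in the table, and 20 of the 22 members had at least 1. The literal sterol element core stood only in the window of Hmgcs1 among these 22 members, against 1.24% of all windows. The E-box occurred in 21.4% of the members' windows and 7.15% of all windows, in Dhcr7, Hsd17b7, Insig1, Sc5d and Scap. The AP-1 letters occurred in 2 of the 28 windows, or 7.14%, against 7.81% of all windows. They read TGAGTCA in both cases, 106 bases before a downstream start of Dhcr7 and 127 bases before the start of Msmo1. In both genes the 30 bases around these letters lie within the annotated gene and overlap annotated exon. These matches are letters in a window, not measured binding.

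Libraries held 16834041 to 20464807 counts. The targeted genes followed the labels: Fosl1 stood at 10.8 ± 1.78 CPM (the gene's counts scaled to a common library size; SD, n = 3) in Fra1 mutants and had 0, 0 and 1 counts in their controls, and Fosl2 stood at 413 ± 12.9 CPM in Fra2 mutants and 25.4 ± 19.7 CPM in their controls. Within the Fra2 controls, replicate 2 had the highest Fosl2 level, at 48.1 CPM. CPM values here use library sizes scaled by TMM, and a gene was called when its Benjamini-Hochberg adjusted p from edgeR's quasi-likelihood test, over all 14076 genes, was under 0.05. Nothing beyond the littermate label says how the mice of a group were related. The p-values measure the spread between samples within groups of 3, estimated over all 12 libraries.

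In control liver the members spanned a wide range of transcript level. Expressed per kb of annotated exon so that genes can be compared, the highest mean levels over the 6 control libraries were those of Sc5d at 160, Hmgcs1 at 133, Ebp at 129 and Insig1 at 99.5 CPM per kb. Sc5d encodes the lathosterol desaturase, Hmgcs1 the cytosolic HMG-CoA synthase and Ebp the sterol isomerase. The control ranges of these 4 genes overlapped from each to the next, so their order is not settled by these samples. Insig2 followed at 55.2 CPM per kb, with a control range that lay wholly below that of Insig1. Srebf2 itself was among the lower members at 10.9 CPM per kb. Mylip, the ubiquitin ligase that degrades the low-density lipoprotein receptor, and Ggps1, which makes geranylgeranyl diphosphate, stood at 2.97 and 2.66 CPM per kb. Idi1, the isopentenyl diphosphate isomerase, was lowest at 0.831 CPM per kb and had only 21 to 80 counts per library.

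**Figure D1:**
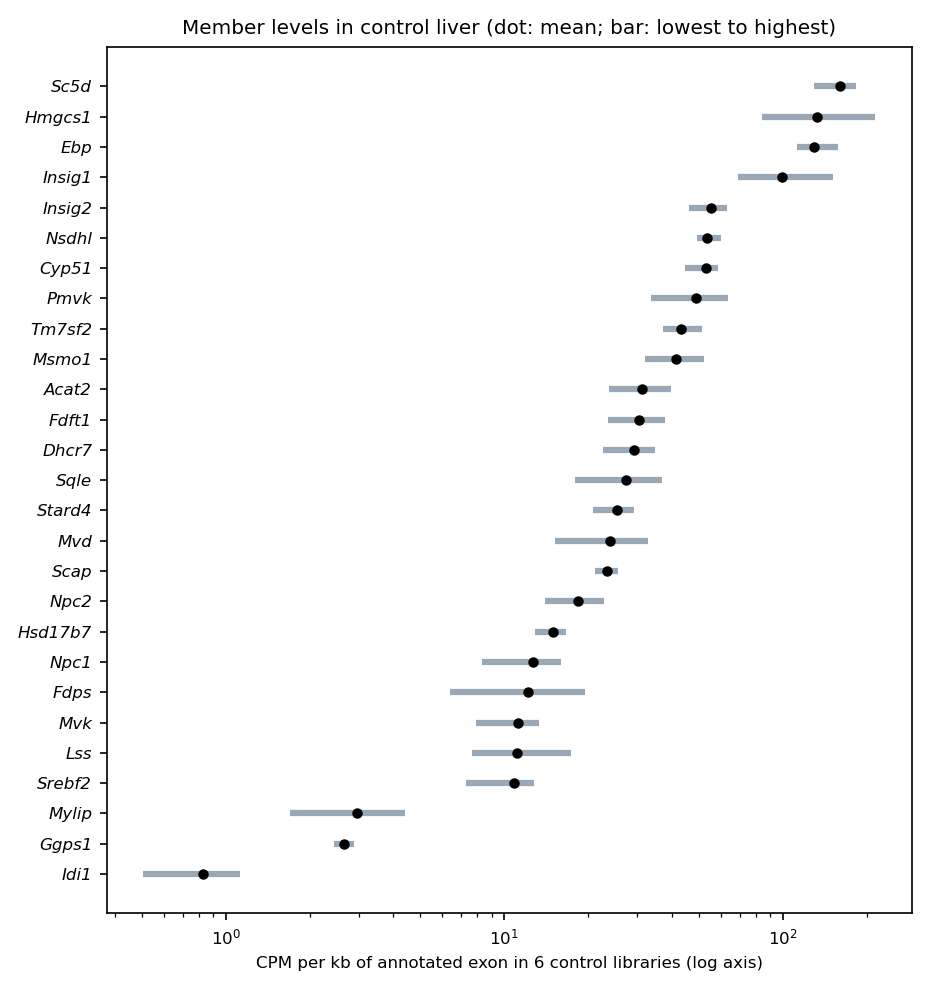
Level of each of the 27 members in the 6 control libraries, in CPM per kb of annotated exon on a log axis; dots are means and bars run from the lowest to the highest library. Sc5d is highest at 160 and Idi1 lowest at 0.831.

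Among the members, 3 of 27 fell and 0 rose in Fra1 mutants: Insig2, Dhcr7 and Scap. Over all genes tested, 0.938% were called lower in that comparison. DESeq2, an alternative count model, called 7 members lower there, adding Acat2, Cyp51, Hsd17b7 and Sc5d, where 1.24% of the 26750 genes it fitted were called lower. All DESeq2 shares given here are over those 26750 genes, which include low-count genes that the edgeR filter removed. Such shares may therefore be low for genes counted as deeply as the members. The members' median log2 fold change was -0.38, against 0.01 over all genes tested, and 24 of the 27 estimates were negative. In Fra2 mutants 0 of 27 members were called, where 0.220% of all genes were called lower. At an unadjusted p under 0.05 edgeR gave 7 members, all with lower estimates, where 4.86% of all genes were lower at that threshold. DESeq2 called 1 of them, Dhcr7, where it called 0.486% of all genes lower. The Fra2 median was -0.27, against -0.01 over all genes tested, with 23 of 27 estimates negative. The strains share no libraries. Their p-values are not independent, however, because the fit estimated each gene's spread from all 12 libraries. Taking the mean of both effects, 4 members fell, namely Dhcr7, Scap, Insig2 and Acat2, where 1.90% of all genes were called lower. DESeq2 called 7 in the mean effect, adding Cyp51, Sc5d and Tm7sf2, where it called 1.86% of all genes lower. The mean effect uses the same 12 libraries and is not independent of the single-strain comparisons.

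**Figure D2:**
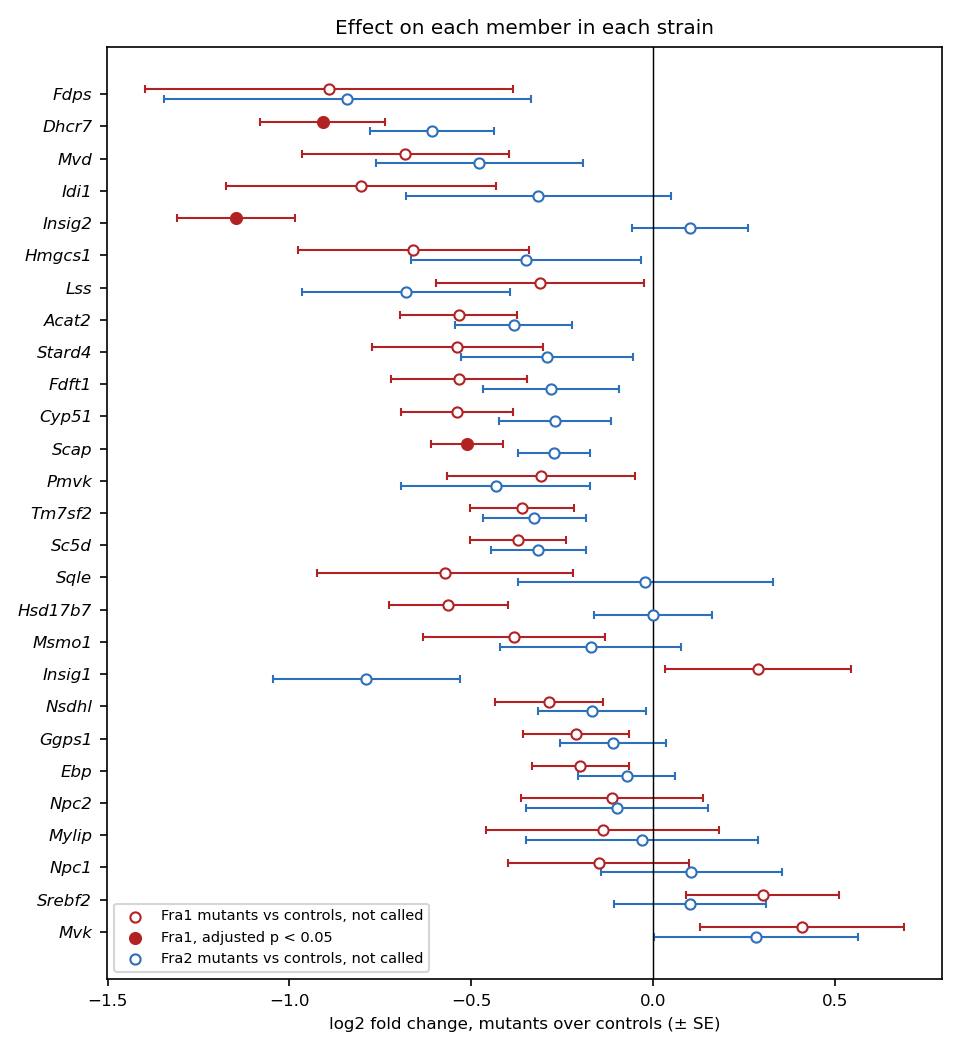
Log2 fold change of mutants over controls for each of the 27 members, with its standard error, in Fra1 (red) and Fra2 (blue), each from 3 mutants and 3 controls; filled points have an adjusted p under 0.05. The 3 filled points are Insig2, Dhcr7 and Scap in Fra1, and Insig2 and Insig1 lie on opposite sides of 0 in the 2 strains.

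Of the 4 regulators and sensors, Insig2 changed most in Fra1 mutants. Insig2 (chr1:121304353-121332589, minus strand, GRCm38) encodes an endoplasmic reticulum protein that retains SCAP when sterols are plentiful. Fra1 controls 1, 2 and 3 had 165.8, 159.5 and 200.4 CPM of Insig2, and Fra1 mutants 1, 2 and 3 had 63.1, 73.9 and 100.3 CPM. The groups did not overlap. Insig2 fell by 54.9% in Fra1 mutants, or -1.15 ± 0.16 on the log2 scale (estimate ± SE; edgeR adjusted p = 0.00214). In Fra2 controls Insig2 stood at 219.4, 197.9 and 207.1 CPM, and in Fra2 mutants at 208.1, 220.3 and 241.1 CPM. These groups overlapped, and the log2 fold change was 0.10 ± 0.16. The mean of both effects on Insig2, -0.52 ± 0.11 (edgeR adjusted p = 0.0188), therefore averages a large negative Fra1 estimate and a small positive Fra2 estimate. The call in the mean effect was lost without scaling factors (edgeR adjusted p = 0.0505). The promoter stretch printed above belongs to the most upstream of the 3 Insig2 starts in the RefSeq table, and the gene-level counts do not separate transcripts from different starts.

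Scap (chr9:110333288-110384950, plus strand) encodes the sterol-sensing escort that moves SREBP proteins out of the endoplasmic reticulum. It had the smallest spread within groups of all 27 members, with an SD of 0.0842 on the log2 scale. Fra1 controls had 173.2, 177.0 and 157.4 CPM of Scap, against 113.9, 118.1 and 123.8 CPM in Fra1 mutants. Fra2 controls had 189.9, 163.0 and 183.3 CPM, against 142.8, 154.5 and 146.6 CPM in Fra2 mutants. In both strains every mutant lay below every control. Scap fell by 29.9% in Fra1 mutants, or -0.51 ± 0.10 on the log2 scale (edgeR adjusted p = 0.0142). In Fra2 mutants the log2 fold change was -0.27 ± 0.10, which was not called, with an edgeR adjusted p of 0.292. The Fra1 call was lost by edgeR when Fra1 control 2 was left out (adjusted p = 0.0587) or Fra1 mutant 1 (adjusted p = 0.0555), and without scaling factors or in a fit of the 6 Fra1 libraries alone. The mean effect over both strains was -0.39 ± 0.07, with an edgeR adjusted p of 0.00592, and it kept its call without any single library. With the replicate number as a block, edgeR called Scap neither in Fra1 (adjusted p = 0.0929) nor in the mean effect (adjusted p = 0.0542).

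Insig1, the close relative of Insig2 and itself a classical SREBP target, had estimates of opposite sign in the strains, neither of them called. Fra1 controls had 214.2, 302.0 and 292.1 CPM of Insig1 (chr5:28071363-28078662, plus strand), and Fra1 mutants had 433.1, 324.2 and 229.3 CPM. Fra2 controls had 301.1, 468.8 and 268.0 CPM, and Fra2 mutants had 217.2, 208.8 and 174.6 CPM. The Fra1 groups overlapped, with a log2 fold change of 0.29 ± 0.26 that was 0.031 without Fra1 mutant 1. In Fra2 all mutants lay below all controls, with a log2 fold change of -0.79 ± 0.26 that was not called by edgeR (adjusted p = 0.231). Srebf2 (chr15:82147181-82205379, plus strand) overlapped between mutants and controls in both strains. Its log2 fold changes were 0.30 ± 0.21 in Fra1 and 0.10 ± 0.21 in Fra2, neither of them called. Srebf2 levels ran from 52.6 to 115.8 CPM over the 12 libraries.

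The balance of the INSIG transcripts differed between the mutant groups. This ratio was computed after the separate values of both genes had been seen, and it is given without a test. Per kb of exon, the ratio of Insig1 to Insig2 was 1.45, 2.13 and 1.64 in Fra1 controls and 7.70, 4.93 and 2.57 in Fra1 mutants. It was 1.54, 2.66 and 1.45 in Fra2 controls and 1.17, 1.06 and 0.813 in Fra2 mutants. The Fra1 mutants, apart from replicate 3, lay above every other library, and the Fra2 mutants lay below all 9 other libraries.

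**Figure D3:**
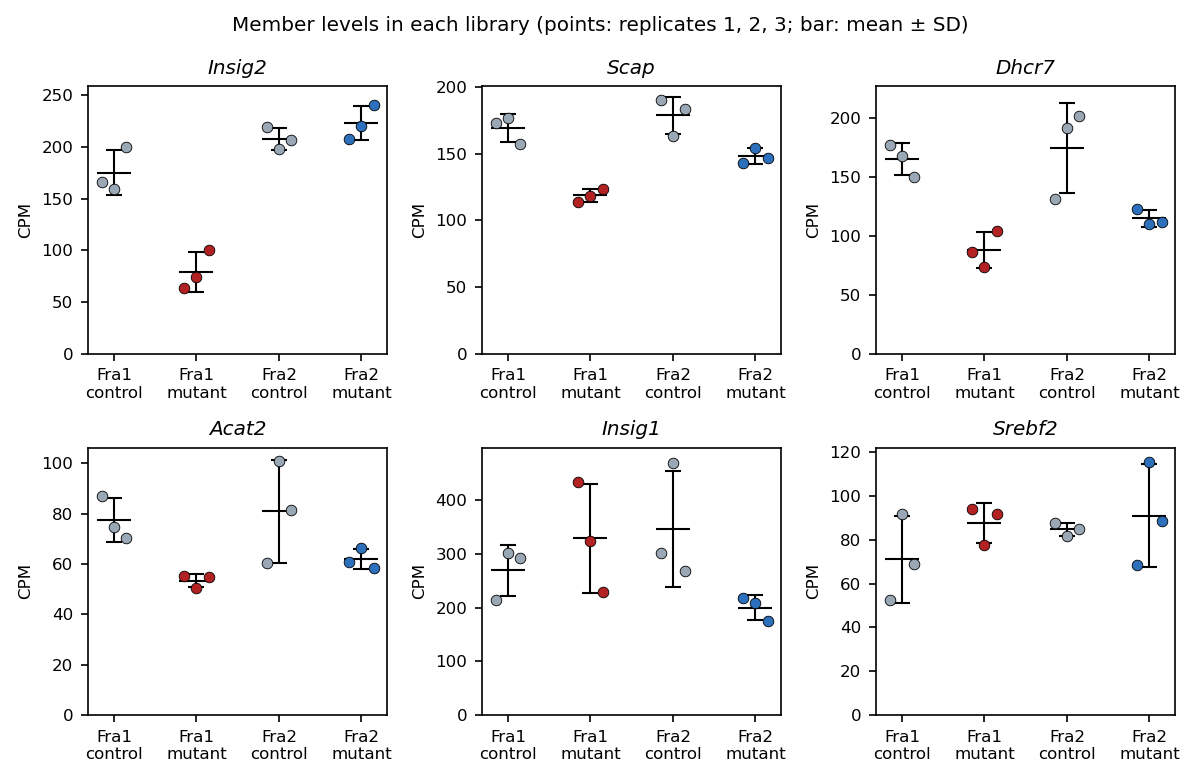
CPM of Insig2, Scap, Dhcr7, Acat2, Insig1 and Srebf2 in each of the 12 libraries, by group; points are replicates and black bars the mean ± SD, with every axis starting at 0. Insig2 is at 63.1 to 100.3 CPM in Fra1 mutants and at 159.5 CPM or more in all other libraries.

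EdgeR called none of the 8 genes of the mevalonate steps in either strain by itself. At an unadjusted p under 0.05 it gave 2 of the 8 in Fra1, against 6.36% of all genes lower, and 1 in Fra2, against 4.86%, all with lower estimates. DESeq2 called 1, Acat2, in Fra1, and 7 of the 8 edgeR estimates were negative in each strain. Acat2 makes acetoacetyl-CoA in the cytosol at the start of the route. It stood at 87.1, 74.8 and 70.3 CPM in Fra1 controls and 55.1, 50.5 and 54.6 CPM in Fra1 mutants, and at 60.2, 100.9 and 81.5 CPM in Fra2 controls and 60.9, 66.4 and 58.6 CPM in Fra2 mutants. The Fra1 groups were apart, while in Fra2 control 1 lay among the mutants. In Fra1 alone its log2 fold change was -0.53 ± 0.16, with an edgeR adjusted p of 0.103. DESeq2 called it there (adjusted p = 0.0430), and so did edgeR without Fra2 control 1 (adjusted p = 0.0304) or Fra2 control 2 (adjusted p = 0.0471). Acat2 (chr17:12942890-12960747, minus strand) fell by 27.3% in the mean of both effects, or -0.46 ± 0.11 on the log2 scale (edgeR adjusted p = 0.0356). That call was lost in 10 of the 12 fits that left out 1 library, with edgeR adjusted p from 0.00414 to 0.0883.

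Hmgcs1, which makes HMG-CoA, varied widely among the controls. Its Fra1 controls had 570.4, 579.1 and 386.9 CPM and its Fra1 mutants 451.6, 216.0 and 304.6 CPM. Its Fra2 controls had 430.6, 987.2 and 712.5 CPM and its Fra2 mutants 477.3, 623.8 and 570.0 CPM. Mutants and controls overlapped in both strains, and the log2 fold changes of -0.66 ± 0.32 and -0.35 ± 0.32 were not called. Fdps, the farnesyl diphosphate synthase, was the most variable member, with a within-group SD of 0.718 on the log2 scale and a 6.53-fold span over the 12 libraries. Its log2 fold changes were -0.89 ± 0.51 in Fra1 and -0.84 ± 0.50 in Fra2, not called in either strain. They were -0.37 without Fra1 control 1 and -0.39 without Fra2 control 2. Part of its annotated span is shared with Gm43738 on the same strand, so its counts are uncertain.

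The remaining mevalonate genes were not called by edgeR or DESeq2. Mvd, the mevalonate diphosphate decarboxylase, had log2 fold changes of -0.68 ± 0.29 in Fra1 and -0.48 ± 0.28 in Fra2. Idi1 had -0.80 ± 0.37 and -0.32 ± 0.36, from low counts. Pmvk, the phosphomevalonate kinase, had -0.31 ± 0.26 and -0.43 ± 0.26. Ggps1, on the branch to protein prenylation, had -0.21 ± 0.15 and -0.11 ± 0.15. Mvk, the mevalonate kinase, was the exception in sign, at 0.41 ± 0.28 in Fra1 and 0.28 ± 0.28 in Fra2, with overlapping groups in both.

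The 11 genes of the squalene and sterol steps all had negative estimates in both strains, and edgeR called 1 of them, Dhcr7, in Fra1. Their median log2 fold change was -0.38 in Fra1 and -0.27 in Fra2. Dhcr7 (chr7:143823145-143848410, plus strand) encodes the reductase that converts 7-dehydrocholesterol to cholesterol in the last step of one arm of the route. Fra1 controls had 177.2, 167.4 and 150.1 CPM of Dhcr7 and Fra1 mutants had 86.0, 73.4 and 104.0 CPM. Fra2 controls had 131.2, 191.6 and 201.9 CPM and Fra2 mutants had 122.7, 109.6 and 111.8 CPM. Every mutant lay below every control in both strains. Dhcr7 fell by 46.7% in Fra1 mutants, or -0.91 ± 0.17 on the log2 scale (edgeR adjusted p = 0.0129). The call was lost by a small margin without Fra1 control 1 (edgeR adjusted p = 0.0529) or with the replicate number as a block (edgeR adjusted p = 0.0554). In Fra2 mutants the log2 fold change was -0.61 ± 0.17 with an edgeR adjusted p of 0.148, and it was called when Fra2 control 1, the lowest control, was left out. The mean of both effects was -0.76 ± 0.12, with an edgeR adjusted p of 0.00319, and it kept its call without any single library.

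Cyp51 and Sc5d lay just outside the threshold in the mean of both effects, with edgeR adjusted p of 0.0511 and 0.0526. Both were called there by DESeq2 (adjusted p = 0.00903 and 0.00238) and by limma-voom. EdgeR called both with the scaling factors of DESeq2, or when genes needed 1 CPM in 3 libraries to be tested. In 3 of the 7 alternatives neither was called, with edgeR adjusted p up to 0.135 and 0.154. They also stayed uncalled in 9 and 10 of the 12 fits that left out 1 library. DESeq2 also called both in Fra1 alone, with adjusted p of 0.0197 and 0.0423. Cyp51, the lanosterol demethylase, had 229.5, 243.0 and 196.7 CPM in Fra1 controls and 177.8, 123.6 and 159.0 CPM in Fra1 mutants, and 223.0, 255.3 and 258.1 CPM in Fra2 controls and 173.0, 219.4 and 218.3 CPM in Fra2 mutants. Sc5d had 699.8, 787.2 and 628.2 CPM in Fra1 controls and 600.5, 524.6 and 510.3 CPM in Fra1 mutants, and 794.3, 890.5 and 869.6 CPM in Fra2 controls and 642.8, 768.3 and 641.2 CPM in Fra2 mutants. For both genes each mutant lay below each control of its strain. Counting such separation over the members, 11 of 27 had all Fra1 mutants below all Fra1 controls, against 9.98% of all genes tested, and 5 of 27 did so in Fra2, against 8.17%. None of the 27 had all mutants above all controls in either strain, against 11.7% of all genes in Fra1 and 9.31% in Fra2.

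EdgeR called none of the other 8 sterol enzymes. Fdft1, the squalene synthase, had log2 fold changes of -0.53 ± 0.19 in Fra1 and -0.28 ± 0.19 in Fra2. Sqle, the squalene epoxidase, had -0.57 ± 0.35 and -0.02 ± 0.35, and Lss, the lanosterol synthase, had -0.31 ± 0.29 and -0.68 ± 0.29. Hsd17b7, a sterol ketoreductase, had -0.56 ± 0.16 in Fra1 and -0.0007 ± 0.16 in Fra2, where its estimate was closest to 0 of the 11, and DESeq2 called it in Fra1 (adjusted p = 0.0314). Tm7sf2, a sterol C14 reductase, had -0.36 ± 0.14 and -0.33 ± 0.14, and DESeq2 called it in the mean of both effects, but it overlaps Vps51 on the same strand. Msmo1, the methylsterol monooxygenase with AP-1 letters in its promoter window, had -0.38 ± 0.25 and -0.17 ± 0.25. Nsdhl, a sterol dehydrogenase, had -0.29 ± 0.15 and -0.17 ± 0.15, and Ebp had -0.20 ± 0.13 and -0.07 ± 0.13. In all, 13 of the 27 members overlap another annotated gene, and the sources used here do not give the strand setting of the counting.

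None of the 4 genes of sterol transport and receptor turnover was called by edgeR or DESeq2. Stard4, a soluble sterol carrier, had 137.9, 163.3 and 132.1 CPM in Fra1 controls and 126.9, 67.5 and 104.0 CPM in Fra1 mutants, with a log2 fold change of -0.54 ± 0.24 and an edgeR adjusted p of 0.285. In Fra2 its estimate was -0.29 ± 0.24. Npc1 and Npc2, which export cholesterol from lysosomes, had -0.15 ± 0.25 and -0.11 ± 0.25 in Fra1 and 0.10 ± 0.25 and -0.10 ± 0.25 in Fra2. Mylip, a target of the oxysterol receptor LXR rather than of SREBP2, had -0.14 ± 0.32 and -0.03 ± 0.32.

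The difference between the strains' effects was tested directly, as the Fra2 effect minus the Fra1 effect. None of the 27 members was called by edgeR, where 0.0355% of all genes were, and 3 of the 27 had an unadjusted p under 0.05, against 6.32% of all genes. Insig2 had a difference of 1.25 ± 0.23 on the log2 scale, with an edgeR adjusted p of 0.168, and DESeq2 called it with an adjusted p of 0.000321, as it did 0.262% of all genes. Insig1 had a difference of -1.08 ± 0.36 (edgeR adjusted p = 0.607) and Hsd17b7 one of 0.56 ± 0.23 (edgeR adjusted p = 0.730). Between the Fra2 and Fra1 controls edgeR called 0% of all genes, with 753, or 5.35%, at an unadjusted p under 0.05, and none of the members, of which 0 had an unadjusted p under 0.05. DESeq2 also called 0 members there, where it called 16 of its 26750 genes higher in the Fra2 controls and 1 lower. It gave 1 member an unadjusted p under 0.05, against 834 of the 26750 genes.

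Across libraries the 19 enzyme genes of both synthesis stages tended to be high or low together. Fra2 control 2 was the highest of its group for 15 of the 19 and the highest of all 12 libraries for 12. Fra2 control 1 was the lowest of its group for 18 of the 19. Among Fra1 mutants, replicate 2 was the lowest of its group for 14 of the 19 and the lowest of all 12 libraries for 12. Fra1 control 3 was the lowest Fra1 control for 17. As a median over the 19 enzymes, the log2 deviation from each gene's mean over the 12 libraries was 0.22, 0.20 and -0.12 in Fra1 controls and -0.12, -0.63 and -0.36 in Fra1 mutants. It was -0.12, 0.43 and 0.32 in Fra2 controls and -0.09, 0.05 and -0.01 in Fra2 mutants. Control 3 and mutant 1 of Fra1 thus had almost the same median, and control 1 and mutant 1 of Fra2 did too. Without Fra1 mutant 2 the members' median log2 fold change in Fra1 was -0.36, and the same 3 genes were called. Without Fra2 control 2 the Fra2 median was -0.14, and 0 members were called. The labels state neither time of day nor feeding at collection.

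**Figure D4:**
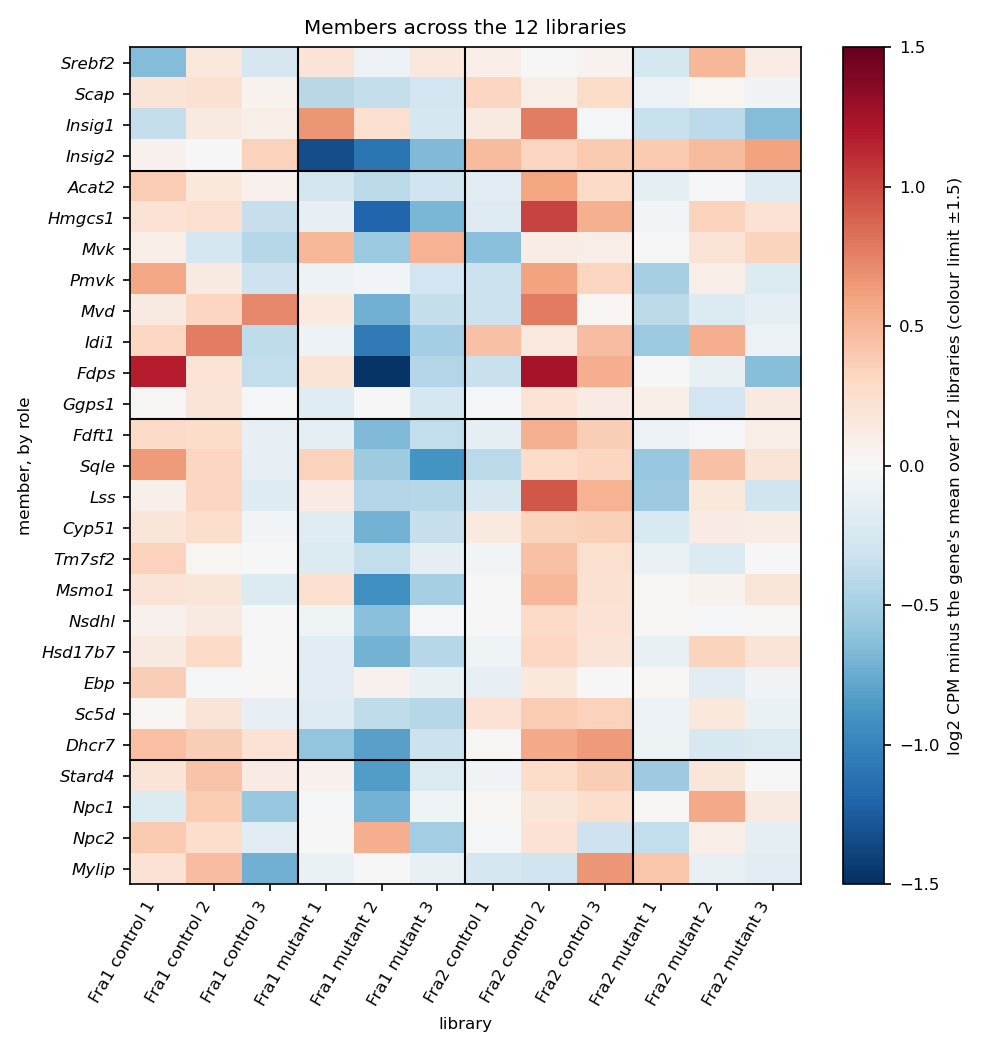
Log2 CPM of each of the 27 members minus its mean over the 12 libraries, by role from top to bottom, with colour from blue (lower) to red (higher). The column of Fra1 mutant 2 is blue for most enzymes and that of Fra2 control 2 red, while Insig2 is dark blue in the 3 Fra1 mutants.

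Other genes of the pathway, 52 in all on lists of SREBP processing, further sterol enzymes and mevalonate branches, and LXR targets with cholesterol efflux and uptake, were tested where counts allowed, which left 50. In Fra1 mutants edgeR called 0 of the 50, with 9 at an unadjusted p under 0.05, against 16.3% of all genes. DESeq2, which fitted 51 of the list, called 3 in Fra1, against 3.76% of the 26750 genes it fitted, low-count genes included. These were Rnf139, an endoplasmic reticulum ubiquitin ligase, at 0.44 on the log2 scale, Lipa, the lysosomal acid lipase, at 0.85, and Cyp27a1, the sterol 27-hydroxylase, at -0.46. The genes that DESeq2 alone called were named after their values were seen. In Fra2 mutants edgeR called 0, with 6 at an unadjusted p under 0.05, against 11.5% of all genes, while DESeq2 called 1, Apoa1, against 1.65%. Limma-voom called 0 in each strain. In the mean of both effects edgeR called 1 of the 50 lower, against the 1.90% of all genes given above, and 0 higher. DESeq2 called the same gene and, higher, Rnf139, Lipa and Erlin1, against 3.14% of all genes called higher. For the difference between strains DESeq2 called 1 of the list, Cyp27a1, at 0.69. The gene that edgeR called was Apoa1, the main apolipoprotein of high-density lipoprotein, at 16381, 10322 and 7996 CPM in Fra1 controls and 5057, 9395 and 4498 CPM in Fra1 mutants. In Fra2 controls it stood at 10978, 9197 and 6866 CPM and in Fra2 mutants at 4471, 3373 and 4138 CPM. Fra1 mutant 2 lay among its controls, and the Fra2 groups were apart. The mean effect on Apoa1 was -1.02 ± 0.23, with an edgeR adjusted p of 0.0219, and the call was lost in 4 of the 12 fits that left out 1 library. The median over the 50 genes was -0.01 in Fra1 and 0.10 in Fra2, against -0.38 and -0.27 for the 27 members.

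The hepatocyte label was checked against 10 markers, none of which had 0 counts throughout. Their summed level was 87323 to 119693 CPM in Fra1 controls and 61730 to 108579 CPM in Fra1 mutants, and 108289 to 133807 CPM in Fra2 controls against 68843 to 83996 CPM in Fra2 mutants. Albumin, Alb, made up 71.3% and 75.3% of the mean sums of the Fra1 and Fra2 controls. Without Alb the other 9 summed to 27105 to 33851 CPM in Fra1 controls and 23686 to 29159 CPM in Fra1 mutants, and to 25806 to 32630 CPM in Fra2 controls and 29979 to 32813 CPM in Fra2 mutants. The median log2 fold change over the 10 was 0.01 in Fra1 and 0.03 in Fra2. EdgeR called none of the 10 in either strain, and in the mean of both effects it called Apob higher, where 4.33% of all genes were. DESeq2 called Pck1 lower and Apob higher in Fra1, Alb lower and Apob higher in Fra2, and Alb and Ttr lower and Apob higher in the mean effect. Limma-voom called Alb lower and Apob higher in the mean effect. Of the 7 stellate cell and fibroblast markers, 1 rose in Fra1 mutants, namely Dcn, with an edgeR adjusted p of 0.00239, where 2.90% of all genes were called higher. DESeq2 also called Dcn higher in Fra2 than in Fra1 controls. The summed level of those 7 was 218 to 296 CPM in Fra1 controls and 353 to 462 CPM in Fra1 mutants, beside 295 to 392 CPM in Fra2 controls and 231 to 360 CPM in Fra2 mutants. The 7 markers of recruited myeloid cells summed to 28.5 to 32.0 CPM in Fra1 controls and 34.3 to 67.7 CPM in Fra1 mutants, with none called by either tool. Kupffer cell, sinusoidal endothelial, biliary and lymphocyte markers gave no call in either strain by edgeR or DESeq2. The part of these shifts in the members' values was not tested.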

How the data were processed

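Polyadenylated RNA from 12 mouse livers (4 groups of 3) was made into strand-marking libraries with 8 PCR cycles, per the labels' protocols. The authors deposited 1 table of whole-number read counts per gene for all 12 libraries. The submitters' processing notes name STAR 2.6.1a, RSEM, bedtools 2.27.1, DESeq2 1.22.2 and the builds GRCm38 and mm10; the sources used here do not give which tool counted, its strand setting, its annotation release or its treatment of reads that map to several places. The deposited counts were fitted with edgeR 4.0.16 (R 4.3.3), using TMM factors, filterByExpr, a robust quasi-likelihood fit of 4 group means over all 12 libraries and two-sided tests, with Benjamini-Hochberg adjustment over 14076 genes. Alternatives were DESeq2 1.42.0, limma-voom (limma 3.58.1), other scalings and filters, a replicate block and each library left out. All 27 members are named; other pathway genes are named when called by edgeR, and those called by DESeq2 alone were named after their values were seen. The members and lists were chosen with earlier results of these data known. Levels per kb use the union of exons in GENCODE M21 (GRCm38). No 2 libraries held the same values, and no 2 of the same group agreed within sampling noise. Agreement within noise was not tested between groups. Only the main edgeR fit was tested on simulated counts, with known changes put in the Fra1 mutants. Total counts of 16834041 to 20464807 per library limit precision mainly for Idi1.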

Additional observations from a re-analysis of the deposited data

How the results depend on the processing

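The count of 3 members called in Fra1 became 7 with DESeq2 and 1, Insig2, with a replicate block, and ran from 2 to 4 over the fits that left out 1 library each. The count of 0 in Fra2 became 1 with DESeq2 and ran from 0 to 1. The count of 4 in the mean of both effects became 2, Scap and Dhcr7, without scaling factors and 2, Insig2 and Dhcr7, with the replicate block. It became 7 with DESeq2 and 6 with limma-voom, RLE scaling or the filter of 1 CPM in 3 libraries. With 1 library left out it ran from 3 to 7, and without Fra2 control 1 it was 7. The count of 0 for the difference between strains became 1 with DESeq2, and that between the controls stayed 0 under each alternative run. Replicate numbers gave no sign of pairing the samples. Same-numbered libraries of a strain correlated at -0.12 to 0.056. Of 6 mutants, 1 correlated best with the control of its own number. A weak effect of litter or cage was not tested. Insig2 kept its Fra1 call under every alternative run. Without scaling factors the median of all genes in Fra1 moved from 0.01 to 0.15, and the members' median minus it moved from -0.39 to -0.38. Estimates near 0 changed sign: without scaling factors, Npc2 (0.031) and Mylip (0.0055) in Fra1 and Sqle (0.036), Hsd17b7 (0.052) and Mylip (0.027) in Fra2; with limma-voom Mylip in Fra2 (0.0040); with no filter Hsd17b7 in Fra2 (0.00035); with the replicate block Mylip in Fra2 (0.014). With 1 library left out, sign changes gave ranges of -0.36 to 0.15 for Npc1, -0.43 to 0.11 for Mylip and -0.42 to 0.092 for Npc2 in Fra1, and in Fra2 of -0.24 to 0.22 for Sqle, -0.10 to 0.11 for Hsd17b7, -0.14 to 0.0028 for Ebp, -0.23 to 0.036 for Npc2, -0.24 to 0.35 for Mylip, -0.11 to 0.27 for Srebf2, -0.19 to 0.0091 for Ggps1 and -0.081 to 0.21 for Npc1. The causes were not tested.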
